A study of Mus musculus with 12 samples.

Results

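10 genes that mark recruited monocytes and the scar-associated, lipid-handling macrophages of an injured liver were followed here across the 3 groups of mice: Trem2, Gpnmb, Cd9, Cd63, Lgals3, Fabp5, Itgax, Ly6c2, Cd68 and Lyz2. They were taken by name from the 21936 genes of the count table, and each name matched 1 gene. Whole liver was sequenced, with 3 libraries in each group. All mice were male C57BL/6 animals (C57BL/6J in the study's methods), 6 weeks old when bought, and all received CCl4, a toxin that injures hepatocytes, at 1 mL/kg into the peritoneum 2 times a week over 8 weeks. The liver fibrosis group (LFG) was killed when CCl4 ended. The regression group (REG) was given 200 µL of PBS into the tail vein, 2 times a week over 4 further weeks. The hADMSCs-Exo group was given 250 µg of exosome protein in 200 µL of PBS on the same schedule, the exosomes being vesicles from human adipose mesenchymal stem cells. LFG thus differed from the other groups in age and in the time since CCl4 as well as in treatment, and these cannot be told apart. The treated columns of the count table are named MSC_E with a number and were matched to the exosome samples by that name, so the identity of the treated libraries rests on this reading. The 3 samples treated with the stem cells themselves were not analysed here, and no liver without CCl4 was among the libraries compared.

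When hepatocytes die, Kupffer cells, the resident macrophages of the liver, release chemokines that draw Ly6C-high monocytes from the blood. These monocytes mature in the tissue, and some of them settle in the scar and take up a program of lipid handling and lysosomal breakdown. TREM2 is a lipid-sensing receptor of that program, GPNMB is a lysosomal glycoprotein, CD9 and CD63 are tetraspanins, galectin-3 (Lgals3) binds sugars on damaged membranes, FABP5 carries fatty acids and CD11c (Itgax) is an integrin chain. CD68 and lysozyme M (Lyz2) are made by most macrophages, and Ly6c2 encodes a surface antigen of young monocytes. CD9 and CD63 also sit on exosomes of many cells. All 10 are protein-coding genes. On GRCm38, the build of the files' coordinates, Trem2 lies at chr17:48346401-48354147, Gpnmb at chr6:49036546-49070929, Cd9 at chr6:125460266-125494791, Cd63 at chr10:128900989-128912822 and Lgals3 at chr14:47367751-47386160. Fabp5 lies at chr3:10012548-10016607, Itgax at chr7:128129547-128150657, Ly6c2 at chr15:75108158-75111970, Cd68 at chr11:69664213-69666153 and Lyz2 at chr10:117277331-117282321. The counts here are of mouse genes in liver RNA, and whether human exosomal RNA added to them was not tested.

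The control regions of these genes are shown because the transcription factors AP-1, PU.1, MITF and C/EBP are known to act in macrophages. RefSeq windows on GRCm38.p6, from 250 bases before to 50 after the start site, were matched for 9 members, all but Fabp5, with 2 windows for Ly6c2. The AP-1 letters TGANTCA, whose reverse complement reads the same, were in 4 of these 10 windows and in 7.81% of all 32851 windows. In Trem2 the match began 9 bases before the start site, in Gpnmb 8 bases after it and in Itgax 56 bases before it, and in Cd68 one began 149 and one 24 bases before it. The stretches from 170 bases before to 30 after the start site follow, 5′ to 3′ on the gene's strand, with the AP-1 letters in capitals.
Trem2 (chr17:48346231-48346430, plus strand): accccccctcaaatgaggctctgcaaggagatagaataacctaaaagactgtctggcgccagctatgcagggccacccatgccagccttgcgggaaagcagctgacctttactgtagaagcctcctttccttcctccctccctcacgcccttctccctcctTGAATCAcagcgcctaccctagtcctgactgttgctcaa
Gpnmb (chr6:49036348-49036547, plus strand): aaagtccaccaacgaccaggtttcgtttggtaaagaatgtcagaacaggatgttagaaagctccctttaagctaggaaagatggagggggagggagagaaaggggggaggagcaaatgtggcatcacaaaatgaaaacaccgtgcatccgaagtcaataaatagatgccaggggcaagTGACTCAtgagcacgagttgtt
Itgax (chr7:128129380-128129579, plus strand): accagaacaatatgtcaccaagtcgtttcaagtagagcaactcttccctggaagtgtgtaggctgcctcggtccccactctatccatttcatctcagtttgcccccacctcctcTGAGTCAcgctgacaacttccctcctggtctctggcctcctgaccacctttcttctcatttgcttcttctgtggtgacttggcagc
Cd68 (chr11:69666141-69666340, minus strand): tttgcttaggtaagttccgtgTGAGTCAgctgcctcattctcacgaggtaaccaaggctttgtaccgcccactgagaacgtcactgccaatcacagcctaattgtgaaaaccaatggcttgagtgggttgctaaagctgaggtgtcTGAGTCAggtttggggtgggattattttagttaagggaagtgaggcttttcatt
The PU.1 letters GAGGAAGT were in 2 of the 10 windows and in 3.2% of all windows, either strand counted. Both were windows of Ly6c2, which overlap and hold the same PU.1 sites. The shorter GAGGAA, which every PU.1 match contains, was in 5 of 10, both Ly6c2 windows among them, and 28.3%. TTGCNNAA of C/EBP was in 2, Trem2 and Cd68, and 10.8%. The MITF letters CACGTG were in 0 of 10 windows and 7.15% of all. A match describes letters in a window and does not show that a factor bound there.

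Total counts per library lay between 13837445 and 19840917. The LFG library with replicate number 3, LFG 3, stood apart. It had 13924 genes with reads, against 14539 to 15248 in the other 8, and the lowest TMM scaling factor, 0.808 against 0.923 to 1.38. In it, the 10 stellate cell and myofibroblast markers summed to 30.9 CPM (counts scaled to library size with TMM factors), against 933 in LFG 1 and 568 in LFG 2, and the 16 markers common to macrophages summed to 377 CPM against 1883 and 1534. Hepatocyte markers were strong in every library, at 83246 to 169148 CPM summed over 8 genes, with none at 0. LFG 1 stood at the other end, with the highest scaling factor, 1.38, and the lowest hepatocyte sum, 83246 CPM against at least 115406 in the others. Results of the members that involve LFG are therefore given with all libraries and without LFG 3, and also without LFG 1 where that moves them. LFG 3 was the lowest library for 10 of 10 members, so leaving it out raises their LFG means. Calls made without it thus depend on the values under test. In whole tissue, fewer cells of a type and less RNA per cell cannot be told apart. Nothing in the sources used here says how the libraries of a group were drawn beyond their replicate numbers, so the p-values measure the spread between these samples.

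The 10 genes covered a wide range of levels. On the deposited FPKM scale, which allows for gene length, Lyz2 was the most abundant in all groups, with medians of 287 in LFG, 143 in REG and 200 in hADMSCs-Exo. The lowest medians were 1.44 for Ly6c2 in LFG, 0.485 for Itgax in REG and 0.663 for Trem2 in hADMSCs-Exo. Within LFG, every gene overlapped its neighbour in the order. In REG, the ranges of neighbours were separate between Lyz2 and Fabp5, Cd9 and Cd63, and Cd63 and Gpnmb. In hADMSCs-Exo they were separate between Lyz2 and Cd68, Cd9 and Cd63, and Gpnmb and Itgax. Fabp5 was second in REG with a median FPKM of 38.4, and in hADMSCs-Exo its range ran from 14.8 to 142.

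Over the 9 libraries, levels of 8 of the 10 genes were closely correlated, less so among the recovery libraries alone. LFG 3 was the lowest of the 9 libraries for 10 of 10 members, and LFG 1 was the highest for 8, all but Fabp5 and Cd9. Pearson's r of log2 CPM between pairs of those 8 genes had a median of 0.914 over the 9 libraries (28 pairs, 0.705 to 0.971), of 0.827 without LFG 3 (0.343 to 0.940) and of 0.537 over the 6 libraries of REG and hADMSCs-Exo (0.077 to 0.928). Cd9 had an r of 0.442 to 0.641 with each of the 8, and of 0.265 to 0.576 without LFG 3. Pairs with Fabp5 had a median r of 0.171 over 9 libraries and of -0.29 without LFG 3. These values are a description: the points share library composition and scaling, and the 8 genes, grouped because LFG 1 was their highest library, also share the low values of LFG 3.

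**Figure D1:**
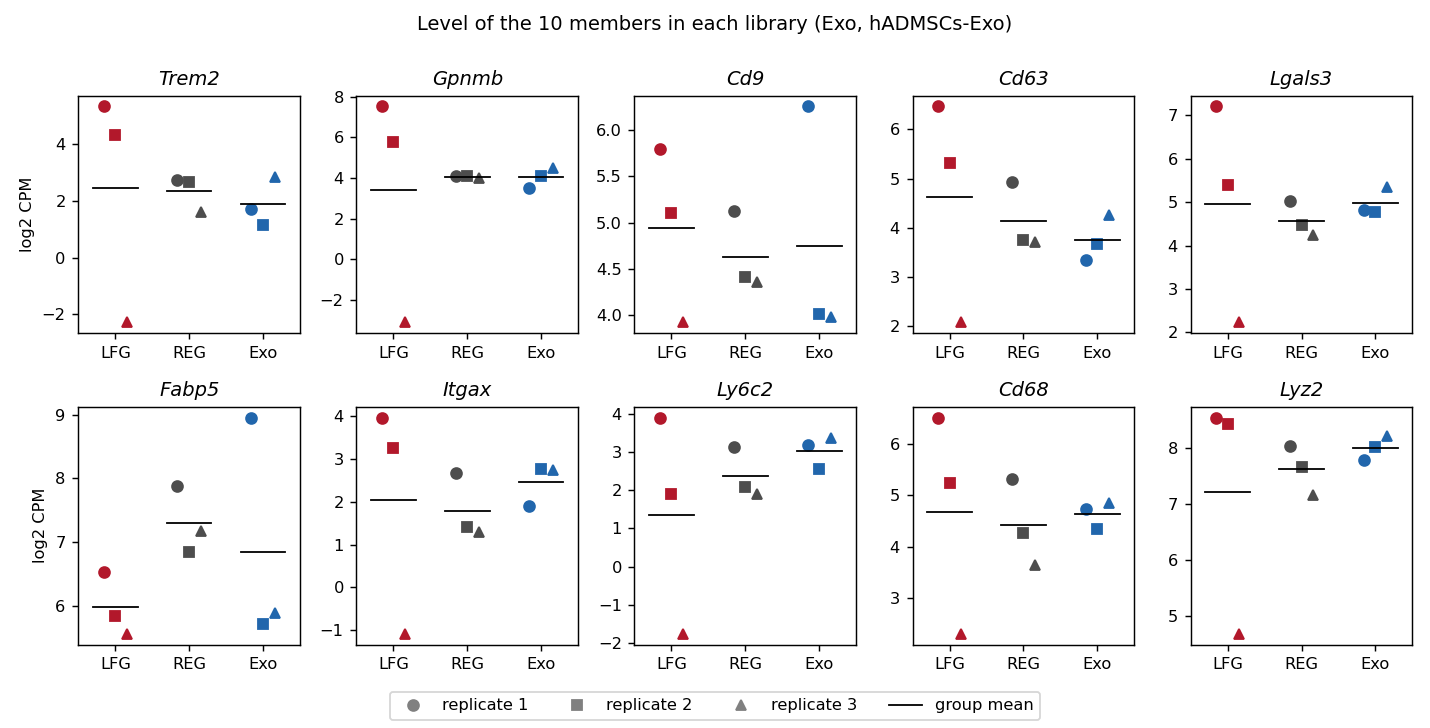
Level of each of the 10 genes as log2 CPM (prior count of 2), with 1 panel a gene, each on its own axis, and the groups LFG, REG and hADMSCs-Exo (Exo) side by side. Points are libraries, shaped by replicate number, and lines are group means. LFG 3 is lowest for 10 of 10 genes, and hADMSCs-Exo 1 is above the other treated libraries for Fabp5 and Cd9.

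In LFG, Trem2 was at 40.4 CPM in LFG 1, 20.2 in LFG 2 and 0.0894 in LFG 3, the last being 1 read. In REG it was at 6.65, 6.32 and 2.97 CPM, and in hADMSCs-Exo at 3.20, 2.11 and 7.12. LFG 1 and 2 lay above all 6 recovery libraries and LFG 3 below all of them, so the groups overlapped. Trem2 is the receptor through which lipid-laden macrophages signal. With the 3 LFG libraries, the log2 fold change was -1.92 (SE 1.26, adjusted p = 0.590) in REG against LFG and -2.32 (SE 1.33, adjusted p = 0.825) in hADMSCs-Exo against LFG. Without LFG 3, Trem2 fell by 2.47 (SE 0.40, adjusted p = 0.0156) in REG and fell by 2.86 (SE 0.51, adjusted p = 0.0270) in hADMSCs-Exo on the log2 scale. Without LFG 1 the values were -0.92 (adjusted p = 0.874) and -1.31 (adjusted p = 0.992). Between hADMSCs-Exo and REG it differed by -0.36 (SE 0.48, adjusted p = 0.822), within the spread of the libraries.

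Gpnmb was at 185 CPM in LFG 1, at 54.2 in LFG 2 and had 0 reads in LFG 3, where 3 reads would be 0.268 CPM. The REG libraries were close to each other at 17.3, 16.8 and 15.9 CPM, and the hADMSCs-Exo libraries were at 11.1, 17.1 and 22.6. Gpnmb marks macrophages with a heavy lysosomal load. Its log2 fold change was -2.25 (SE 1.51, adjusted p = 0.597) in REG and -2.26 (SE 1.54, adjusted p = 0.859) in hADMSCs-Exo against the 3 LFG libraries. With LFG 1 and 2 alone, Gpnmb fell by 2.80 (adjusted p = 0.0154) in REG and stood at -2.81 in hADMSCs-Exo, where the adjusted p was 0.0278 without and 0.0643 with the replicate number as a block. With LFG 2 and 3 alone it stood at -0.69 in both (adjusted p = 0.924 and 0.993). Between hADMSCs-Exo and REG the difference was 0.024 (SE 0.24, adjusted p = 0.983).

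Cd63, a tetraspanin of late endosomes, was at 88.1, 39.8 and 4.11 CPM in LFG, at 30.6, 13.4 and 13.01 in REG, and at 10.1, 12.6 and 19.0 in hADMSCs-Exo. LFG 1 and 2 were above all recovery libraries, and the REG and hADMSCs-Exo libraries were interleaved. Without LFG 3, it fell by 1.71 in REG (SE 0.45, adjusted p = 0.0406) and by 2.19 in hADMSCs-Exo (SE 0.38, adjusted p = 0.0266). With LFG 3 the values were -1.19 (adjusted p = 0.636) and -1.69 (adjusted p = 0.814), and without LFG 1 they were -0.19 (adjusted p = 0.968) and -0.67 (adjusted p = 0.992). The difference between hADMSCs-Exo and REG was -0.46 (SE 0.38, adjusted p = 0.706) and turned to 0.084 without REG 1, the highest of the 6.

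Lgals3 was at 148, 42.3 and 4.56 CPM in LFG, at 32.5, 21.9 and 18.7 in REG, and at 28.0, 27.2 and 40.8 in hADMSCs-Exo. Again the LFG libraries bracketed the rest. Without LFG 3, galectin-3 mRNA fell by 1.92 in REG (SE 0.47, adjusted p = 0.0362), while in hADMSCs-Exo the value was -1.56 (SE 0.47, adjusted p = 0.0857). With the 3 LFG libraries it was -1.39 (adjusted p = 0.613) and -1.04 (adjusted p = 0.897), and without LFG 1 both values were above 0. Between hADMSCs-Exo and REG it differed by 0.39 (SE 0.25, adjusted p = 0.630). Itgax, the chain that joins with CD18 on dendritic cells and lipid-associated macrophages, was at 15.5, 9.39 and 0.358 CPM in LFG, at 6.22, 2.53 and 2.34 in REG, and at 3.61, 6.69 and 6.55 in hADMSCs-Exo. Without LFG 3, it fell by 1.72 in REG (SE 0.45, adjusted p = 0.0418) and stood at -1.14 (SE 0.34, adjusted p = 0.0879) in hADMSCs-Exo. With LFG 3 neither passed, at -1.18 (adjusted p = 0.681) and -0.61 (adjusted p = 0.945), and without LFG 1 the values were -0.39 (adjusted p = 0.944) and 0.18. For Itgax, hADMSCs-Exo differed from REG by 0.60 (SE 0.44, adjusted p = 0.664).

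Cd68 and Lyz2 stand for macrophages of any kind. Cd68 was at 91.4, 37.5 and 4.83 CPM in LFG, at 40.0, 19.3 and 12.4 in REG, and at 26.5, 20.3 and 28.6 in hADMSCs-Exo, so that REG 1 reached above LFG 2. Lyz2 was at 375, 347 and 25.4 CPM in LFG, at 264, 204 and 143 in REG, and at 221, 261 and 297 in hADMSCs-Exo, where LFG 1 and 2 were above the rest. Neither gene passed edgeR's test without a block in any comparison, with or without LFG 3. Without it, Cd68 stood at -1.39 (adjusted p = 0.0921) in REG and -1.35 (adjusted p = 0.0649) in hADMSCs-Exo, and Lyz2 at -0.78 (adjusted p = 0.0789) and -0.46 (adjusted p = 0.206). With the 3 LFG libraries, Cd68 stood at -0.88 (SE 0.91) and -0.85 (SE 0.84), and Lyz2 at -0.27 (SE 0.83) and 0.042 (SE 0.82). Without LFG 1, both genes were above 0 in both comparisons, Cd68 at 0.19 and 0.23 and Lyz2 at 0.15 and 0.47. Between hADMSCs-Exo and REG, Cd68 differed by 0.065 (SE 0.39) and Lyz2 by 0.35 (SE 0.24). Lyz1, the close relative of Lyz2, had at most 11 reads in a library.

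Ly6c2 was at 14.9, 3.63 and 0.179 CPM in LFG, at 8.75, 4.12 and 3.61 in REG, and at 9.002, 5.79 and 10.3 in hADMSCs-Exo. LFG 1 was the highest library and LFG 3, with 2 reads, the lowest, while LFG 2 lay among the REG libraries. No comparison passed the test: the log2 fold change was -0.18 (SE 1.10, adjusted p = 0.965) in REG and 0.38 (SE 1.07, adjusted p = 0.968) in hADMSCs-Exo against LFG, and 0.60 (SE 0.38, adjusted p = 0.621) between hADMSCs-Exo and REG. Against LFG, its direction turned with the library left out: in REG it was -0.73 without LFG 3 and 1.51 without LFG 1, and in hADMSCs-Exo -0.15 and 2.08. Ly6c1, a near-identical endothelial relative, had 3 to 94 reads per library, and reads shared by both genes may be split between them.

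Fabp5, a carrier of long-chain fatty acids that is also made by endothelium and epithelia, had a pattern of its own. It was at 92.8, 57.6 and 47.3 CPM in LFG, at 236, 115 and 144 in REG, and at 495, 52.4 and 59.2 in hADMSCs-Exo. All REG libraries were above all LFG libraries, and a single treated library, hADMSCs-Exo 1, was far above the other 8. In REG against LFG the log2 fold change was 1.34 (SE 0.37, unadjusted p = 0.00920, adjusted p = 0.335), 1.18 (adjusted p = 0.0547) without LFG 3 and 1.67 (adjusted p = 0.386) without LFG 1. DESeq2 gave an adjusted p of 0.0395 and limma with voom 0.0301. In hADMSCs-Exo against REG it was 0.28 (SE 0.79, adjusted p = 0.927) with all libraries and -1.57 (adjusted p = 0.213) without hADMSCs-Exo 1. Against LFG the same library took the value from -0.22 to 1.61 (SE 0.89, adjusted p = 0.824), and without LFG 3 it was 1.43 (adjusted p = 0.360).

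Cd9, a tetraspanin of many cell types, was at 55.4, 34.4 and 15.0 CPM in LFG, at 34.9, 21.1 and 20.4 in REG, and at 76.4, 16.03 and 15.7 in hADMSCs-Exo. As for Fabp5, hADMSCs-Exo 1 was the highest of all libraries and the other treated libraries were at the low end. Over the 6 REG and hADMSCs-Exo libraries the r of Fabp5 and Cd9 was 0.953, with that library the highest for both genes. The difference from REG was 0.49 (SE 0.59, adjusted p = 0.802) with hADMSCs-Exo 1 and -0.69 without it. Against LFG, Cd9 stood at -0.44 (SE 0.47, adjusted p = 0.735) in REG and 0.028 (SE 0.74, adjusted p = 0.998) in hADMSCs-Exo. Without LFG 3 the values were -0.78 (adjusted p = 0.101) and -0.31 (adjusted p = 0.797), and without LFG 1 they were 0.060 and 0.54. Cd9 overlaps Gm28809 and Gm26728 on the opposite strand, and since the use of strand in counting is not given in the sources used here, reads of these genes cannot be told apart from its own.

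**Figure D2:**
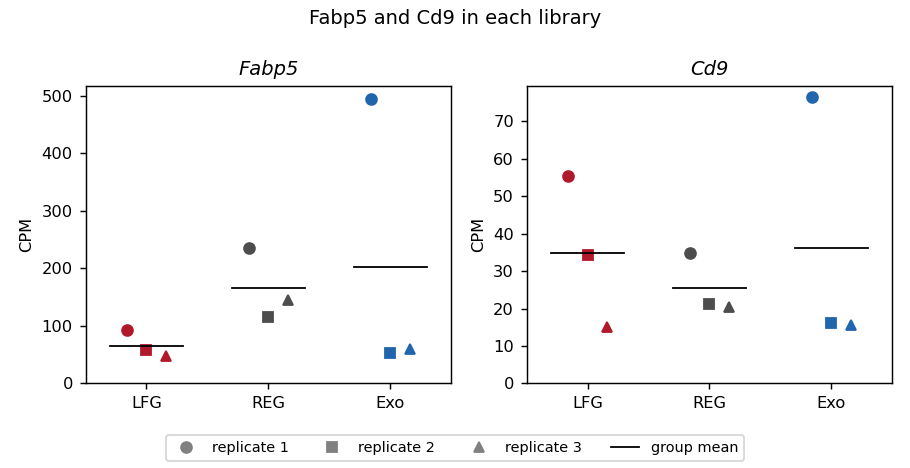
Fabp5 (left) and Cd9 (right) in CPM on a linear axis, by group. Points are libraries, shaped by replicate number, and lines are group means. hADMSCs-Exo 1, at 495 CPM of Fabp5 and 76.4 CPM of Cd9, stands apart from the other treated libraries.

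The comparison of hADMSCs-Exo with REG asks what the exosomes added to recovery without CCl4. By edgeR's quasi-likelihood test, where a gene was called at an adjusted p under 0.05 and a fold change of at least 2, 0 of the 10 members were called, against 0.00811% of the 12337 genes tested. 0 members had an unadjusted p under 0.05, against 10.0% of all genes, and in 0 did the groups not overlap, against 15.5%. DESeq2 and limma with voom also called 0. The fitted values were higher in hADMSCs-Exo for 8 members and lower for 2, Trem2 and Cd63, with a median log2 fold change of 0.31 against 0.0080 over all genes. The smallest adjusted p of a member was 0.621, for Ly6c2. Without hADMSCs-Exo 1 the median was 0.14, with 6 higher and 4 lower, and 2 members had an unadjusted p under 0.05 against 10.1% of all genes. These were Fabp5 at -1.57 (SE 0.31, adjusted p = 0.213) and Cd9 at -0.69 (SE 0.27, adjusted p = 0.467). Without REG 1 the median was 0.65, with 9 higher and 1 lower, and 5 members, Itgax, Ly6c2, Lgals3, Lyz2 and Cd68, had such a p against 10.6% of all genes. The smallest adjusted p among them was 0.346, and 0 members were called with any library left out.

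The comparison of REG with LFG asks what changed over the 4 weeks without CCl4. edgeR called 0 of 10 members, as it called 0% of 12517 genes. 9 members were lower in REG and Fabp5 was higher, with a median log2 fold change of -1.03 against -0.068 over all genes. Fabp5 was the 1 member with an unadjusted p under 0.05 (11.3% of all genes, 4.62% higher in REG), the 1 whose groups did not overlap (19.0% of all genes, 8.89% higher in REG) and the 1 called by DESeq2 (1.91% of all genes) and by limma with voom (10.3%). Without LFG 3, the lowest library for 10 of 10 members, 5 members were called lower, Trem2, Gpnmb, Cd63, Lgals3 and Itgax. Of 12948 genes, 10.7% were called in either direction and 6.94% called lower. The median of the members was then -1.55. Without LFG 1 the median was 0.068, with 6 members higher and 4 lower in REG and 0 called.

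For hADMSCs-Exo against LFG, edgeR called 0 of 10 members and 0% of 12489 genes. 0 members had an unadjusted p under 0.05 (5.98% of all genes) and 0 had groups that did not overlap (12.3%). DESeq2, which gave no adjusted p for Fabp5, and limma with voom called 0. 6 members were lower and 4 higher in hADMSCs-Exo, with a median of -0.73 against -0.059 over all genes. Without LFG 3, 3 members fell, Trem2, Gpnmb and Cd63, against 5.97% of 12955 genes called and 4.5% called lower, and the median was -1.24. These fits had no block. With the replicate number as a block and LFG 3 left out, 2 of the 3 were called, Trem2 and Cd63, against 3.05% of all genes. Gpnmb then had an adjusted p of 0.0643 by edgeR. In that fit hADMSCs-Exo 3 is alone in its block, so the contrast rests on the libraries numbered 1 and 2. Without LFG 1 the median was 0.33, with 7 members higher and 3 lower and 0 called. This comparison and the previous one share the LFG libraries, and the gap between LFG 1 and 2 and LFG 3 enters both.

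**Figure D3:**
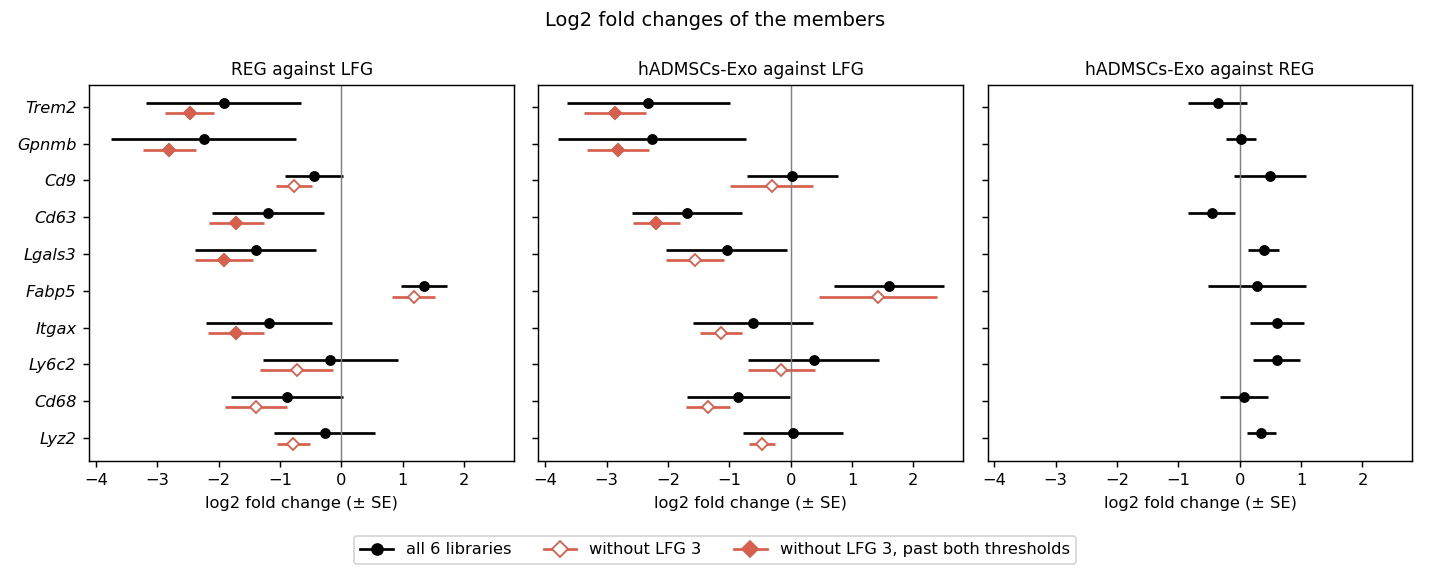
Log2 fold change of each gene in the 3 comparisons, with bars of 1 SE, with all libraries and, for the comparisons with LFG, without LFG 3. Black points use all 6 libraries and diamonds leave LFG 3 out, filled where a gene passed both thresholds, which 5 genes did in REG and 3 in hADMSCs-Exo.

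To set the scar-associated genes against the amount of macrophage RNA, reads of each member were counted per 100 Cd68 reads of the same library, a ratio that no library scaling can alter. Trem2 had 44.2, 53.9 and 1.85 reads per 100 Cd68 reads in LFG, 16.6, 32.8 and 23.9 in REG, and 12.1, 10.4 and 24.9 in hADMSCs-Exo. In LFG 1 and 2 the ratio was thus above that of all recovery libraries, while LFG 3, with 1 Trem2 read, was below them. Gpnmb had 202, 144 and 0 in LFG, 43.1, 87.2 and 128 in REG, and 42.1, 84.3 and 78.9 in hADMSCs-Exo, with the same order. Lgals3 showed no such gap, at 161, 113 and 94.4 in LFG, 81.4, 114 and 151 in REG, and 106, 134 and 143 in hADMSCs-Exo.

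Cd63 and Ly6c2 were the members whose ratio did not overlap between groups. Cd63 had 96.3, 106 and 85.2 reads per 100 Cd68 reads in LFG, 76.4, 69.5 and 105 in REG, and 38.3, 62.0 and 66.3 in hADMSCs-Exo. All treated libraries were below all others, with means of 55.5 ± 15.1 (SD, n = 3) against 83.5 ± 18.6 in REG and 95.9 ± 10.5 in LFG. Ly6c2 had 16.3, 9.69 and 3.70 in LFG, 21.9, 21.4 and 29.1 in REG, and 34.0, 28.5 and 35.9 in hADMSCs-Exo. The means were 9.90 ± 6.31 in LFG, 24.1 ± 4.30 in REG and 32.8 ± 3.85 in hADMSCs-Exo, with LFG below both other groups. The two-sided exact permutation test gave p = 0.1 for each of these 4 differences, the smallest that 3 against 3 allows, and 0.675 after adjustment over 27 tests, so none passed. Over all genes tested, reads per Cd68 read did not overlap for 2.25% in hADMSCs-Exo against REG (1.53% lower in hADMSCs-Exo), 1.79% in REG against LFG (1.29% higher in REG) and 2.02% in hADMSCs-Exo against LFG (0.881% higher and 1.14% lower in hADMSCs-Exo). These ratios turn on the gene in the denominator: with Adgre1 (F4/80) in place of Cd68 the separation held for Cd63 in hADMSCs-Exo against LFG (3.06% of all genes separated in that direction) and was lost for Cd63 against REG and for Ly6c2, and with the summed common macrophage genes it was lost in all 4 cases. Other members then separated, Itgax with Adgre1 (lower in REG than in LFG, as 1.21% of all genes) and Fabp5 with the summed genes (higher in REG than in LFG, as 2.48%), at the same p = 0.1 of the exact permutation test.

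**Figure D4:**
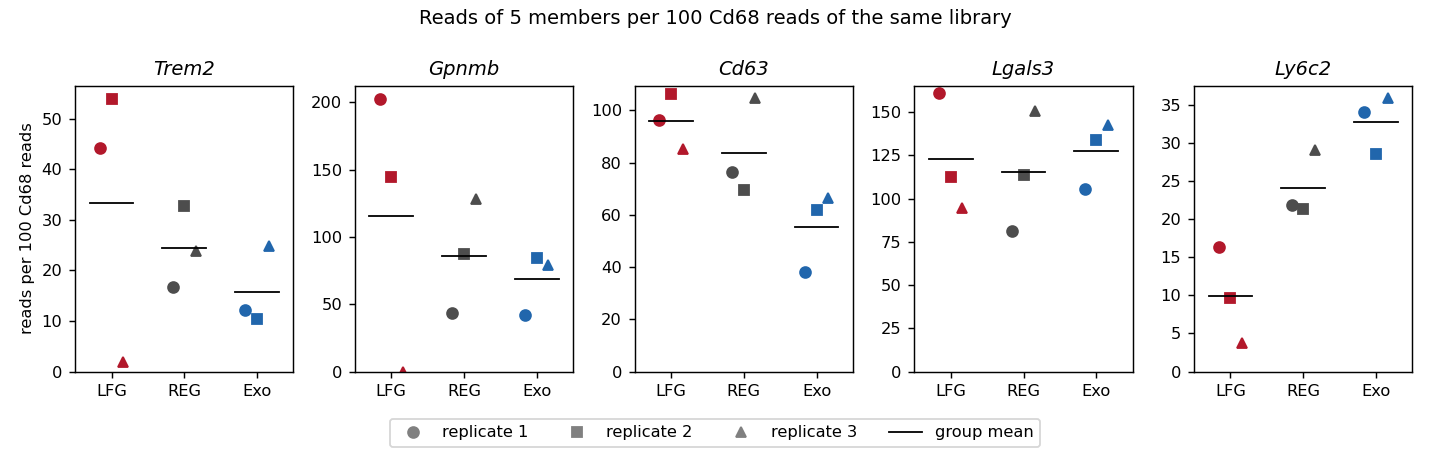
Reads of Trem2, Gpnmb, Cd63, Lgals3 and Ly6c2 per 100 Cd68 reads of the same library, on linear axes from 0, by group. Points are libraries and lines are group means. Cd63 in hADMSCs-Exo (38.3 to 66.3) lies below the other groups, and Ly6c2 in LFG (3.70 to 16.3) lies below both recovery groups.

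The genes through which TREM2 signals and is shed were measured beside it. In this and the lists that follow, calls without LFG 3 are read against the 6.94% of all genes called lower in REG and the 4.5% called lower in hADMSCs-Exo in the same fits. Without LFG 1, 0 genes of any list were called. Of 10 genes, 0 were called in any comparison with all libraries, and without LFG 3 2 fell in REG and 1 in hADMSCs-Exo. Syk, the kinase recruited by the TREM2 adaptor, was at 40.6, 30.3 and 5.28 CPM in LFG, at 14.97, 8.19 and 6.90 in REG, and at 15.04, 17.96 and 16.2 in hADMSCs-Exo. Every treated library was above every REG library, as for 8.07% of all genes, but hADMSCs-Exo 1 was only just above REG 1. The difference was 0.71 by edgeR (unadjusted p = 0.0403, adjusted p = 0.485). With all libraries Syk stood at -1.33 (adjusted p = 0.505) in REG and -0.65 (adjusted p = 0.901) in hADMSCs-Exo against LFG, and without LFG 1 at -0.81 and -0.13. Without LFG 3, it fell by 1.78 in REG (adjusted p = 0.0181), and in hADMSCs-Exo it stood at -1.10, with an adjusted p of 0.0266 that became 0.0673 with the replicate block, so that 0 genes of the list were then called. Adam17, a protease that sheds TREM2, stood at -0.72 in REG with all libraries (adjusted p = 0.489) and at -0.44 without LFG 1, and it fell by 1.02 without LFG 3 (adjusted p = 0.0158). Adam10, another such protease, stood at -0.61 with all libraries and at -0.89 without LFG 3 (adjusted p = 0.0228), short of the fold limit.

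Of 30 genes of the lipid and lysosome program, 0 were called with all libraries. Without LFG 3, 7 fell and 0 rose in REG against LFG, and 5 fell and 0 rose in hADMSCs-Exo, or 4 fell with the replicate block, with list medians of -0.54 and -0.56 against -0.0051 and 0.0041 over all genes. The list medians were -0.23 and -0.28 with all libraries and 0.13 and 0.039 without LFG 1. Ctsk, a collagen-degrading cathepsin, was at 5.82, 6.37 and 2.33 CPM in LFG, at 1.73, 1.43 and 1.49 in REG, and at 0.178, 0.783 and 1.51 in hADMSCs-Exo, all LFG libraries being the higher. Few reads lay behind the recovery values of Ctsk, 28, 26 and 28 in REG and 3, 13 and 24 in hADMSCs-Exo. Its unadjusted p was 0.00918 in REG and 0.0127 in hADMSCs-Exo, with adjusted p of 0.335 and 0.805, and without LFG 3 it fell by 1.93 and by 2.87 (adjusted p = 0.0153 and 0.0426). With all libraries its values were -1.63 and -2.57, and without LFG 1 they were -1.48 and -2.40. Soat1, which esterifies cholesterol for storage, stood at -1.25 in REG with all libraries (SE 0.76, adjusted p = 0.559), at -0.63 without LFG 1, and fell by 1.74 without LFG 3 (adjusted p = 0.0151). Abca1, the cholesterol exporter, was at 178, 176 and 130 CPM in LFG, at 78.9, 87.3 and 116 in REG, and at 153, 151 and 122 in hADMSCs-Exo, so that REG lay below both other groups without overlap. Its adjusted p was 0.380 in REG against LFG and 0.407 in hADMSCs-Exo against REG, for log2 fold changes of -0.77 (SE 0.24) and 0.59 (SE 0.17).

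Of 18 genes of monocyte recruitment, 13 to 15 passed the low-count filter with all libraries and 0 were called. Without LFG 3, 16 passed, and 4 fell in REG and 2 in hADMSCs-Exo, or 1 in hADMSCs-Exo with the replicate block. Ccr2, the receptor that brings monocytes out of the marrow and into the liver, was at 26.9, 10.3 and 0.268 CPM in LFG, at 4.81, 6.54 and 2.76 in REG, and at 6.93, 8.32 and 6.87 in hADMSCs-Exo. With all libraries it stood at -1.41 (SE 1.12, adjusted p = 0.650) in REG and -0.79 (adjusted p = 0.927) in hADMSCs-Exo against LFG. It fell by 1.94 in REG without LFG 3 (adjusted p = 0.0337), with -1.33 (adjusted p = 0.0739) in hADMSCs-Exo, and without LFG 1 the values were -0.17 and 0.45. Chil3, a gene of young monocytes, differed between hADMSCs-Exo and REG by 1.47 (SE 0.70, adjusted p = 0.530).

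The 16 common macrophage genes followed the members. Their mean log2 CPM was 6.17, 5.87 and 3.06 in LFG, 5.63, 4.87 and 4.47 in REG, and 5.31, 5.29 and 5.30 in hADMSCs-Exo, where the libraries were nearly alike. 0 were called with all libraries, and without LFG 3 2 fell in REG and 4 in hADMSCs-Exo, or 4 and 2 with the replicate block. In hADMSCs-Exo against REG, 3 of them were above REG without overlap, against 8.07% of all genes, and none below. Cd14, the co-receptor for endotoxin, was at 14.4, 14.2 and 18.4 CPM in hADMSCs-Exo and at 11.1, 8.13 and 6.37 in REG, a difference of 0.87 (SE 0.24, unadjusted p = 0.00595, adjusted p = 0.402). Itgam (CD11b) differed by 1.40 (adjusted p = 0.430). In REG against LFG, Itgam stood at -1.65 with all libraries (SE 0.67, adjusted p = 0.432) and at -1.22 without LFG 1, and it fell by 2.05 without LFG 3 (adjusted p = 0.0233). The mean log2 CPM of the 7 scar-associated genes less that of the common genes was -0.053, -0.87 and -2.02 in LFG, -0.99, -0.92 and -0.69 in REG, and -0.95, -1.54 and -1.07 in hADMSCs-Exo, so the gap varied more within LFG than between the recovery groups.

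Markers of Kupffer cells had a mean log2 CPM of 5.50, 5.43 and 3.21 in LFG, 5.75, 4.58 and 3.91 in REG, and 5.23, 5.17 and 5.38 in hADMSCs-Exo. Of 8 genes, 0 were called with all libraries, and without LFG 3 1 fell in REG, Cd163, by 2.16 (adjusted p = 0.0192), and 0 in hADMSCs-Exo. Cd163, the haemoglobin scavenger receptor, was at 13.6, 21.2 and 6.71 CPM in LFG, at 6.10, 2.97 and 2.34 in REG, and at 5.92, 20.7 and 5.67 in hADMSCs-Exo, with no overlap between REG and LFG. Its log2 fold change in REG was -1.85 with all libraries (SE 0.54, adjusted p = 0.353) and -1.86 without LFG 1. Clec4f, which in mouse liver is made by Kupffer cells, was at 148, 110 and 59.0 CPM in LFG, at 327, 152 and 93.5 in REG, and at 204, 141 and 155 in hADMSCs-Exo. Timd4 was at 5.10, 8.39 and 3.58 CPM in LFG, at 14.9, 5.99 and 3.61 in REG, and at 10.9, 12.7 and 15.9 in hADMSCs-Exo. All treated libraries were above all LFG libraries, by a log2 value of 1.19 (SE 0.36, unadjusted p = 0.0138, adjusted p = 0.805).

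**Figure D5:**
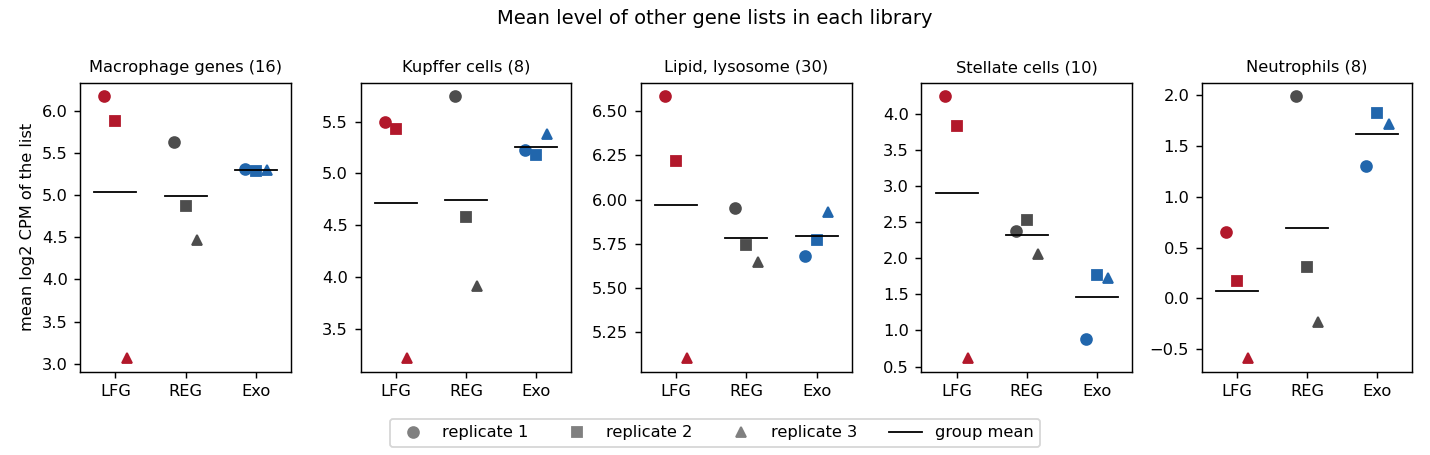
Mean log2 CPM over the common macrophage genes, the Kupffer cell genes, the lipid and lysosome program, the stellate cell markers and the neutrophil markers, by group. Points are libraries and lines are group means. LFG 3 is the lowest library in each panel, and the 3 hADMSCs-Exo libraries are within 5.29 to 5.31 for the common macrophage genes.

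Other cell types moved between the same libraries, and their part in the values above was not tested. Stellate cell and myofibroblast markers summed to 108 to 181 CPM in REG and 37.1 to 91.7 in hADMSCs-Exo, both below LFG 1 and 2 and above LFG 3, and without LFG 3 3 of 9 tested genes fell in REG and 6 in hADMSCs-Exo. Itgax and Lyz2 are also made by other leukocytes. The 10 dendritic cell markers summed to 59.6 CPM in LFG 3 and 229 to 599 in the other libraries, with 0 called. Neutrophil markers summed to 10.8 to 31.8 CPM in LFG, 11.5 to 61.2 in REG and 37.3 to 55.1 in hADMSCs-Exo. Without LFG 3, 2 of 7 were called higher in hADMSCs-Exo against LFG, as were 1.47% of all genes. With the replicate block and LFG 3 left out, 0 of 7 were called in hADMSCs-Exo. In REG 3 of 6 were then called higher, as were 691 of 12948 genes. T and NK cell markers summed to 5.90 CPM in LFG 3 and 19.5 to 37.8 elsewhere, endothelial markers to 61.2 in LFG 3 and 91.2 to 310.1 elsewhere, and platelet markers to 3.13 to 9.19 over all libraries, with 0 of their genes called without a block. With the replicate block and LFG 3 left out, 1 endothelial gene was called lower in hADMSCs-Exo and 1 higher in REG, both against LFG. Of all genes, 291 of 12955 and 691 of 12948 were called in those directions. Cholangiocyte markers summed to 9.12 to 24.5 CPM, and without LFG 3 2 fell in REG and 2 in hADMSCs-Exo, or 1 and 0 with the replicate block. Of the hepatocyte markers 1 rose in REG without LFG 3, where 3.81% of all genes were called higher.

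Over the 9 libraries and 12750 genes, those whose log2 CPM followed Trem2 most closely were Acot9 (r = 0.996), Cyp3a44 (0.989), Otulinl (0.985), Glipr1 (0.979) and Pmp22 (0.979), and without LFG 3 these r lay between 0.943 and 0.990. Cyp3a44, a cytochrome P450, is of low abundance here, with 0.0894 to 1.47 CPM. The mean of the 10 standardized members was followed closely by Cd300a (0.996), Clec12a (0.991), Arhgap25 (0.991) and Evl (0.990), with 0.974 to 0.990 without LFG 3. Cd300a and Clec12a encode inhibitory receptors of myeloid cells. For Fabp5, ranked after its values had been seen, the closest were Snx9 (0.952), Adora1 (0.937), Nudt21 (0.932), Rtp4 (0.931) and Parp9 (0.924), of which Rtp4 and Parp9 are interferon-induced. None of these were members, and all points share the scaling of the same 9 libraries.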

How the data were processed

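Liver RNA from 9 libraries in 3 groups was analysed. The labels gave the groups of samples, and columns of the table were matched to samples by name. The LFG and REG columns carry the names in the sample titles. The treated columns, named MSC_E with a number, were matched to the samples titled Exo, an inference from the letter E, and no column was matched to the samples titled MSC. The submitters' processing notes name cutadapt 1.15, HISAT2 2.0.5, HTSeq 0.9.1 and DESeq 1.30.0. The authors deposited raw counts per gene, which were tested unaltered, and FPKM, which equals those counts divided by gene length and library total within a relative difference of 9.19e-07 and served only to order genes by level. Whether counting used strand, and which annotation, is not given in the sources used here.

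Each comparison was fitted on its own 6 libraries by the quasi-likelihood test of edgeR 4.0.16 (R 4.3.3), two-sided, with TMM factors, the low-count filter of edgeR and Benjamini-Hochberg adjustment over the genes tested. Calls needed an adjusted p below 0.05 together with a log2 fold change of 1 or more in size. The SE is the log2 fold change divided by the root of F. CPM used TMM factors from the 9 libraries, and log2 CPM a prior count of 2. Ratios to Cd68 were compared by exact permutation (scipy 1.17.1), and matplotlib 3.10.9 drew the plots. The fits were first tested on simulated data. The lowest chi-square per gene over all 36 pairs of libraries was 23.4, so no library repeated another.

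The alternatives were RLE size factors, DESeq2 1.42.0, voom with quality weights (limma 3.58.1), no low-count filter, a minimum of 10 counts per library, a joint fit of the 9 libraries, a replicate block, other thresholds, and the omission of each library. Library totals as the only scaling, the replicate block with LFG 3 left out, and other denominators for the ratios, were chosen after seeing the data. The members, gene lists and tests were chosen with earlier results of these data known. Named are all members, up to 3 genes with the smallest p from each macrophage list, and the 5 genes most like Trem2 and like the mean of the members. The results of 3 genes under this rule are not reported here. Marker lists of other cells are given by counts and summed levels.

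Replicate numbers 1 to 3 recur in each group. Deviations from the group means correlated by 0.101, 0.308 and 0.180 for the same-numbered hADMSCs-Exo and LFG libraries. All exceed 0.1, and on that ground alone values with the block are given beside the main results of this comparison. The main fits had no block.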

Additional observations from a re-analysis of the deposited data

How the results depend on the processing

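The count of members called was 0 for hADMSCs-Exo against REG under each alternative run at the adjusted threshold. For REG against LFG it became 1 (Fabp5) with DESeq2, with limma voom and with an unadjusted p, and ranged from 0 to 5 as single libraries were left out, with 5 in the absence of LFG 3. For hADMSCs-Exo against LFG it ranged from 0 to 3, again without LFG 3. With the replicate number as a block, 0 members were called in each comparison with all 6 libraries, and the median over the members moved from 0.31 to 0.17 in hADMSCs-Exo against REG, from -1.03 to -0.42 in REG against LFG and from -0.73 to -0.20 in hADMSCs-Exo against LFG. In REG and hADMSCs-Exo against LFG, Trem2 then stood at -0.90 and -1.87, Gpnmb at -0.93 and -1.10, Cd63 at -0.61 and -1.11, Lgals3 at -0.50 and -0.20 and Cd68 at -0.34 and -0.24, and Itgax stood at -0.57 in REG. The block with LFG 3 left out, chosen after seeing the data, called 7 members in REG (the 5 called there with no block, Cd68 at -1.03 and Fabp5 at 1.22, median -1.26) and 2 in hADMSCs-Exo (Trem2 and Cd63, median -1.31), among 1656 and 395 of all genes. In these fits the REG or hADMSCs-Exo library numbered 3 is alone in its block, so the contrast rests on the libraries numbered 1 and 2. In hADMSCs-Exo this fit turned Cd9 to -0.29, Ly6c2 to -0.075 and Lyz2 to -0.58. In the other comparisons, same-numbered libraries correlated by 0.159, 0.00938 and 0.0336 (hADMSCs-Exo, REG) and 0.415, -0.202 and 0.305 (REG, LFG). Under the block, the log2 fold change turned to -0.028 for Gpnmb and -0.48 for Fabp5 in hADMSCs-Exo against REG, to 0.69 for Ly6c2 and 0.32 for Lyz2 in REG against LFG, and to -0.19 for Cd9 and 0.020 for Itgax in hADMSCs-Exo against LFG. With limma voom it turned to -0.53 for Fabp5 in hADMSCs-Exo against REG, and in hADMSCs-Exo against LFG to -0.66 for Cd9 and -0.24 for Lyz2. Requiring 10 counts in every library gave -0.0071 for Cd9 and -0.00019 for Lyz2 there, and library totals alone gave -0.20, -0.25 and, for Ly6c2, -0.0016. Why these values turned was not tested, but none had passed the thresholds. Library totals alone moved the median of all genes by -0.20 in REG and by -0.12 in hADMSCs-Exo against LFG.

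With single libraries left out, the direction turned in hADMSCs-Exo against REG for Gpnmb (-0.24 to 0.25), Cd9 (-0.69 to 0.85), Cd63 (-0.75 to 0.084), Fabp5 (-1.57 to 0.73) and Cd68 (-0.25 to 0.68). In REG against LFG it turned for Cd9 (-0.78 to 0.060), Lgals3 (-1.92 to 0.076), Ly6c2 (-0.73 to 1.51), Cd68 (-1.45 to 0.19) and Lyz2 (-0.78 to 0.15). In hADMSCs-Exo against LFG it turned for Cd9 (-1.13 to 0.54), Lgals3 (-1.56 to 0.44), Fabp5 (-0.22 to 2.07), Itgax (-1.14 to 0.18), Ly6c2 (-0.15 to 2.08), Cd68 (-1.35 to 0.23) and Lyz2 (-0.46 to 0.47). Over all genes, 1, 0 and 0 were called in hADMSCs-Exo against REG, REG against LFG and hADMSCs-Exo against LFG. DESeq2 called 67, 239 and 60, limma voom 3, 1285 and 1, no low-count filter 4, 0 and 0, and one fit of all libraries 0, 0 and 1.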
